A study of Mus musculus with 16 samples.

Results

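*Kit*, its ligand *Kitl* and 6 regulators or markers of blood stem cells (*Runx1*, *Gata2*, *Tal1*, *Lmo2*, *Myb* and *Cd34*) were chosen by name and followed through RNA sequencing of whole mouse embryos. The 8 genes were each found once among the 26411 genes of the count tables, and all 8 passed the filter on low counts that kept 15679 genes. The 16 embryos, all taken at E9.5 from crosses that mixed FVB and BALB/c, fell into 4 genotypes of 4 embryos. *Kat6a+/+Kat6b+/+* embryos were wild type at both genes. *Kat6a-/-Kat6b+/+* embryos carried on both chromosomes a *Kat6a* allele that lacks a run of internal exons in every cell. *Kat6a+/+Tg(Kat6b)* embryos carried a *Kat6b* transgene, a multi-copy bacterial artificial chromosome with the gene's own flanking sequence from a single founder, beside intact *Kat6a*. *Kat6a-/-Tg(Kat6b)* embryos combined that transgene with loss of *Kat6a*. KAT6A and KAT6B are related histone acetyltransferases, and the comparisons asked which transcripts depended on *Kat6a* and whether extra *Kat6b* changed that dependence.

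KIT is a receptor tyrosine kinase on the cell surface, and KIT ligand, or stem cell factor, is the protein that binds and activates it. The pair sustains blood stem and progenitor cells, melanoblasts and primordial germ cells, and both genes are also transcribed in other embryonic tissues. RUNX1, GATA2, TAL1, LMO2 and MYB act in the nucleus to set up or maintain the blood lineages, and CD34 is a surface protein of blood progenitors and of endothelium. At E9.5 most circulating blood is primitive erythroid, and blood stem cells that can repopulate an adult have yet to appear in number, so a whole embryo holds few of the cells for which these genes are known.

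*Kat6b* checked the transgene. Counts are given as CPM, scaled to a common library size, as mean ± SD with n = 4 here and throughout. *Kat6b* averaged 192 ± 29.7 CPM in the *Kat6a+/+Tg(Kat6b)* and 197 ± 4.92 CPM in the *Kat6a-/-Tg(Kat6b)* group, against 46.2 ± 2.45 CPM in the *Kat6a+/+Kat6b+/+* and 49.1 ± 2.03 CPM in the *Kat6a-/-Kat6b+/+* group. Gene-level *Kat6a* counts did not check the null allele, since they pool the retained exons with the missing ones (log2 fold change 0.03, SE 0.08, between *Kat6a-/-Kat6b+/+* and *Kat6a+/+Kat6b+/+* embryos). Each library held 14407277 to 45665680 counts. Litters 801 and 803 gave the *Kat6a-/-Kat6b+/+* embryos and litters 2597 and 2598 the *Kat6a+/+Tg(Kat6b)* embryos, and each of those 4 litters also gave 1 *Kat6a+/+Kat6b+/+* embryo. All *Kat6a-/-Tg(Kat6b)* embryos came from litters 483 and 498, which held no other genotype here, so that genotype and its litters cannot be told apart.

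*Kit* lies on chromosome 5 (GRCm39 5:75735576-75817404, plus strand) between 2 other receptor tyrosine kinase genes, *Pdgfra* 376699 bases to one side and *Kdr* 276082 bases to the other. *Kitl* is on chromosome 10 (99851492-99936278, plus strand), as is *Myb* (21000834-21036883, minus strand). *Runx1* is on chromosome 16 (92398354-92623037, minus strand), *Gata2* on chromosome 6 (88170559-88184018, plus strand) and *Tal1* on chromosome 4 (114913623-114928952, plus strand). *Lmo2* is on chromosome 2 (103788331-103812355, plus strand) and *Cd34* on chromosome 1 (194621029-194647172, plus strand). All 8 are protein-coding genes. Another gene on the opposite strand covered 11.5% of the exon bases of *Gata2* (*Spehd*), 9.85% of *Lmo2* (*4931422A03Rik*), 7.96% of *Myb* (*Gm26577*), 4.88% of *Tal1* (*Gm33786*) and 4.11% of *Cd34* (*Gm16897*), and under 1% of *Runx1*, *Kit* and *Kitl*. The library kit does not mark strand, so reads from such stretches could not be assigned to one gene of the pair.

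RefSeq promoter windows of 300 bases, 250 before and 50 after a transcript start, were matched by symbol for 7 of the 8 genes (11 windows), but not for *Lmo2*. The windows shown are those of *Kit* and *Kitl*, the genes that passed a test in any comparison, of *Pdgfra*, the neighbour of *Kit* that passed the same tests, and of *Tal1*, which holds a GATA match. They were read from RefSeq windows for GRCm38.p6, each found once in GRCm39, which gives the coordinates. Capitals mark 3 kinds of motif, searched on both strands. GATA motifs, read by GATA2, were AGATAA with its variants AGATAG and TGATAA and also TGATAG. RUNX motifs, read by RUNX1, were TGTGGT and likewise TGCGGT, and E-boxes, read by TAL1 and its partners, were CANNTG.
*Kit*, GRCm39 5:75735397-75735696, plus strand: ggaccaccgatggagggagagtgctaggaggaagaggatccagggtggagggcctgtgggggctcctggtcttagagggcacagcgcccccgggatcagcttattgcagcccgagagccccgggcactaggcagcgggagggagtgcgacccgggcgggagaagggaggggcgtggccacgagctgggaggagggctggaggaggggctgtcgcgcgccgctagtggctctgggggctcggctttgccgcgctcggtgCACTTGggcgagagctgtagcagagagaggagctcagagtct
*Kitl*, GRCm39 10:99851433-99851732, plus strand: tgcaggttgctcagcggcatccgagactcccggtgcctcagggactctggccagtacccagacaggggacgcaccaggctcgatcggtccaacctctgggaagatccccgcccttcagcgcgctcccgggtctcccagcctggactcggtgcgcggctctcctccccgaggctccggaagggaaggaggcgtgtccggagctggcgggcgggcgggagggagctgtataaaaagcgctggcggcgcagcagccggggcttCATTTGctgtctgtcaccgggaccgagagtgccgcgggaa
*Pdgfra*, GRCm39 5:75312662-75312961, plus strand: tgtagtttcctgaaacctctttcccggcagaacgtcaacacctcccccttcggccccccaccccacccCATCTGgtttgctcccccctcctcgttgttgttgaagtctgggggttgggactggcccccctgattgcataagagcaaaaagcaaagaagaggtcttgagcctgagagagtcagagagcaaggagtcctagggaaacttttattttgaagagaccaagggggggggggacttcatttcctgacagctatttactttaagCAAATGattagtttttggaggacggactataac
*Tal1*, GRCm39 4:114913373-114913672, plus strand: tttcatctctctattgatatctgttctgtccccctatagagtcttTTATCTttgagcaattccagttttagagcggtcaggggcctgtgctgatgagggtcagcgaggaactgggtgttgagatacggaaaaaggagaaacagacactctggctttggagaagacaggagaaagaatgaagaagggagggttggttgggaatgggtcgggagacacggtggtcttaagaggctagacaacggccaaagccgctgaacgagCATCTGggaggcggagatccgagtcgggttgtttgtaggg
The *Kit* window was 69% G and C with 20 CG dinucleotides, against medians of 52.7% and 7 over all 32851 windows, and the *Pdgfra* window was 51% G and C with 5 CG dinucleotides. In *Kit* the only capitals are an E-box, CACTTG, from position 9 to 14 after the start, counted from 1. In *Tal1* the capitals are the reverse complement of a GATA motif, TTATCT, and an E-box, CATCTG, and no capitals overlap each other in these 4 windows. Over the 11 windows, 2 held a GATA match, 1 a RUNX match (the distal *Runx1* window), 7 an E-box and 6 an ETS motif, either CCGGAA or else AGGAAG. The 2 *Kit* windows start 4 bases apart and hold the same E-box and ETS matches, so these are counted in both windows. Of all windows, 29.8% held a GATA match, 22.4% a RUNX match, 72.3% an E-box and 45.2% an ETS match.

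Levels differed widely between the 8 genes in *Kat6a+/+Kat6b+/+* embryos. Per transcript length, in RPKM, counts scaled for gene length and library size, *Cd34* was the most abundant at 30.9 ± 2.49. *Lmo2*, which encodes an adaptor that bridges TAL1 and GATA factors, followed at 12.6 ± 0.741, and *Kitl* at 11.0 ± 0.594. The ranges of *Lmo2* (11.7 to 13.4 RPKM) and *Kitl* (10.3 to 11.7 RPKM) overlapped, and those of all other neighbours in the order did not. *Kit* came next at 6.92 ± 0.422 RPKM, below its ligand in each of the 4 embryos, and then came *Tal1* at 5.32 ± 0.494, *Gata2* at 3.22 ± 0.350 and *Myb* at 2.02 ± 0.130. *Runx1* was the lowest at 0.321 ± 0.117 RPKM, with 25 to 76 counts per embryo, and its counting error is accordingly the largest of the 8.

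**Figure D1:**
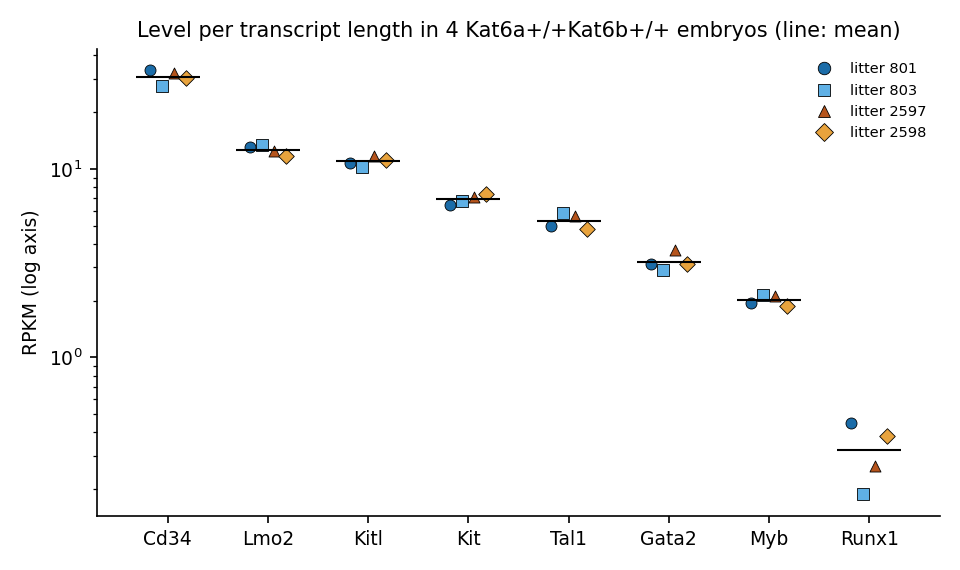
RPKM, on a log axis, of the 8 genes in the 4 *Kat6a+/+Kat6b+/+* embryos, ordered by mean (line), with symbols for the litters. *Cd34* averages 30.9 RPKM and *Runx1* 0.321, and only *Lmo2* and *Kitl* overlap among neighbours.

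*Kit*, the receptor, was the only one of the 8 genes to differ between *Kat6a-/-Kat6b+/+* and *Kat6a+/+Kat6b+/+* embryos, and it was lower without *Kat6a*. The 4 *Kat6a+/+Kat6b+/+* embryos had 33.2, 35.1, 36.9 and 38.2 CPM and the 4 *Kat6a-/-Kat6b+/+* embryos 31.9, 30.7, 27.4 and 29.8 CPM. Every *Kat6a-/-Kat6b+/+* embryo was below every *Kat6a+/+Kat6b+/+* embryo, and the gap between the nearest pair was small beside the spread within each genotype. The means were 29.9 ± 1.89 and 35.9 ± 2.18 CPM, and *Kit* fell to 0.835 of the *Kat6a+/+Kat6b+/+* level (edgeR log2 fold change −0.26, SE 0.06, 95% interval −0.38 to −0.14, FDR 0.0233). That is 1 of 8 genes past FDR 0.05, beside 1.88% of all tested genes in either direction and 0.938% that were lower, and 1 of 8 without overlap between the genotypes beside 7.97% of all tested genes.

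Within litters *Kit* was lower in each *Kat6a-/-Kat6b+/+* embryo than in its *Kat6a+/+Kat6b+/+* littermate, 4 of 4. In litter 801 the *Kat6a+/+Kat6b+/+* embryo, a male, had 33.2 CPM against a mean of 31.3 in 2 female *Kat6a-/-Kat6b+/+* embryos. In litter 803, where all were male, the *Kat6a+/+Kat6b+/+* embryo had 35.1 CPM against 28.6. The *Kat6a+/+Kat6b+/+* embryos of litters 2597 and 2598, which held no *Kat6a-/-Kat6b+/+* embryo, had the highest *Kit* of their genotype, 36.9 and 38.2 CPM. When litter was a block in a fit of the 12 embryos from those 4 litters, the log2 fold change was −0.24 with surrogate variables (FDR 0.453) and −0.19 without them (FDR 0.639). The call also depended on the surrogate variables (FDR 0.0971 without them) and was lost when any one of 6 embryos was left out, *Kat6a+/+Kat6b+/+* replicate 2, 3 or 4 or *Kat6a-/-Kat6b+/+* replicate 1, 2 or 3 (FDR up to 0.0890 over all 16 omissions).

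*Kit* was higher where *Kat6a* loss was combined with the transgene. The *Kat6a-/-Tg(Kat6b)* embryos had 36.0, 43.1, 37.9 and 42.1 CPM (39.8 ± 3.40). All 4 were above all 4 *Kat6a-/-Kat6b+/+* embryos, and those at 36.0 and 37.9 CPM lay within the *Kat6a+/+Kat6b+/+* range. Against *Kat6a-/-Kat6b+/+* embryos *Kit* was 1.32-fold higher (log2 fold change 0.40, SE 0.06, 95% interval 0.27 to 0.52, edgeR FDR 0.000504), the only call among the 8 genes, beside 7.14% of all tested genes in either direction and 3.39% that were higher. *Kit* and *Runx1* were the 2 of 8 genes without overlap, beside 15.2% of all tested genes. The call of *Kit* held in all 16 fits that left out 1 embryo (log2 fold change 0.39 to 0.44, FDR up to 0.00387) and in all 10 other settings, but no litter was shared.

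Against *Kat6a+/+Kat6b+/+* embryos *Kit* in *Kat6a-/-Tg(Kat6b)* embryos did not pass the test. Its mean was above the *Kat6a+/+Kat6b+/+* mean, at 39.8 against 35.9 CPM, and the 2 genotypes overlapped. The log2 fold change was 0.14 (SE 0.06, 95% interval 0.01 to 0.26, edgeR FDR 0.350), so the interval reached from near equality to about 0.26 higher on the log2 scale. None of the 8 genes was called in this comparison, beside 0.67% of all tested genes, with 2 of the 8 higher at an unadjusted p under 0.05 (*Kit* and *Kitl*) beside 5.72% of tested genes, while DESeq2 called 1 (*Kitl*) and limma-voom none.

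The transgene with intact *Kat6a* left no detectable difference in *Kit*. *Kat6a+/+Tg(Kat6b)* embryos had 34.2, 38.5, 39.8 and 36.3 CPM (37.2 ± 2.49), which overlapped the *Kat6a+/+Kat6b+/+* range. The log2 fold change was 0.05 (SE 0.06, 95% interval −0.07 to 0.17, edgeR FDR 0.805) and turned to −0.015 and −0.056 with litter as a block. None of the 8 genes was called by edgeR, beside 0.14% of all tested genes, and DESeq2 and limma-voom called none either. None had an unadjusted p under 0.05, beside 11.5% of all tested genes, and none was free of overlap, beside 4%. Between the 2 genotypes without a shared litter, *Kit* was 1.24-fold higher in *Kat6a+/+Tg(Kat6b)* than in *Kat6a-/-Kat6b+/+* embryos (log2 fold change 0.31, SE 0.06, edgeR FDR 0.00154), the only call of the 8 genes beside 12.7% of all tested genes in either direction and 5.46% that were higher. *Kit* and *Runx1* did not overlap, 2 of 8 genes beside 15.8% of all tested genes. With litter as a block that value was 0.18 (FDR 0.890) or, without surrogate variables, 0.17 (FDR 0.803).

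Whether *Kat6a* loss acted differently on *Kit* with and without the transgene was tested as an interaction. *Kat6a* loss gave a log2 fold change of −0.26 without the transgene and 0.08 (SE 0.06, FDR 0.503) with it, a difference of 0.34 (SE 0.09, 95% interval 0.17 to 0.52). The unadjusted p was 0.000561 and the edgeR FDR 0.108, so the difference did not pass the threshold over all genes. None of the 8 did, beside 0.153% of all tested genes, and 2 of 8 (*Kit* and *Kitl*) were higher at an unadjusted p under 0.05, beside 7.47%. DESeq2 called 1 of the 8, *Kit* (0.35, adjusted p 0.0400), limma-voom called none, and leaving out *Kat6a+/+Tg(Kat6b)* replicate 3 gave 0.41 with an edgeR FDR of 0.0175.

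*Kitl*, the ligand, followed another pattern, and it was higher in *Kat6a-/-Tg(Kat6b)* than in *Kat6a+/+Tg(Kat6b)* embryos. *Kat6a-/-Tg(Kat6b)* embryos had 67.1, 64.9, 64.5 and 66.6 CPM and *Kat6a+/+Tg(Kat6b)* embryos 56.4, 58.8, 57.9 and 64.2 CPM. The groups did not overlap, although one *Kat6a+/+Tg(Kat6b)* embryo came close to the lowest of the other group. *Kitl* was 1.15-fold higher (65.8 ± 1.27 against 59.3 ± 3.38 CPM, log2 fold change 0.20, SE 0.05, 95% interval 0.10 to 0.30, edgeR FDR 0.0246), the only call of the 8 genes, beside 3.41% of all tested genes in either direction and 2.28% that were higher. It was also the single gene of the 8 without overlap, beside 10.5% of all tested genes. The call was lost without surrogate variables (log2 fold change 0.15, FDR 0.0919), with a replicate block (0.19, FDR 0.0731) and without *Kat6a+/+Tg(Kat6b)* replicate 1 or *Kat6a-/-Tg(Kat6b)* replicate 1 or 4 (0.19 each, FDR up to 0.0794).

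In the other genotypes *Kitl* averaged 59.3 to 62.4 CPM. *Kat6a-/-Tg(Kat6b)* embryos overlapped the *Kat6a-/-Kat6b+/+* embryos in *Kitl*, and it was not called between them (log2 fold change 0.11, SE 0.04, 95% interval 0.02 to 0.20, edgeR FDR 0.141). The *Kat6a+/+Kat6b+/+* embryos had 58.7, 56.2, 63.8 and 60.9 CPM and the *Kat6a-/-Kat6b+/+* embryos 59.6, 60.8, 64.3 and 65.0 CPM, ranges that overlapped (log2 fold change 0.06, 95% interval −0.03 to 0.15, FDR 0.514). Each *Kat6a-/-Kat6b+/+* embryo was above its *Kat6a+/+Kat6b+/+* littermate, 4 of 4, by a mean of 0.12 on the log2 scale. *Kat6a-/-Tg(Kat6b)* embryos were all above all *Kat6a+/+Kat6b+/+* embryos (log2 fold change 0.17, SE 0.05, FDR 0.0854), a difference that missed the threshold in edgeR, passed it in DESeq2 (adjusted p 0.0440) and is the single non-overlap among the 8 genes beside 7.1% of all tested genes.

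**Figure D2:**
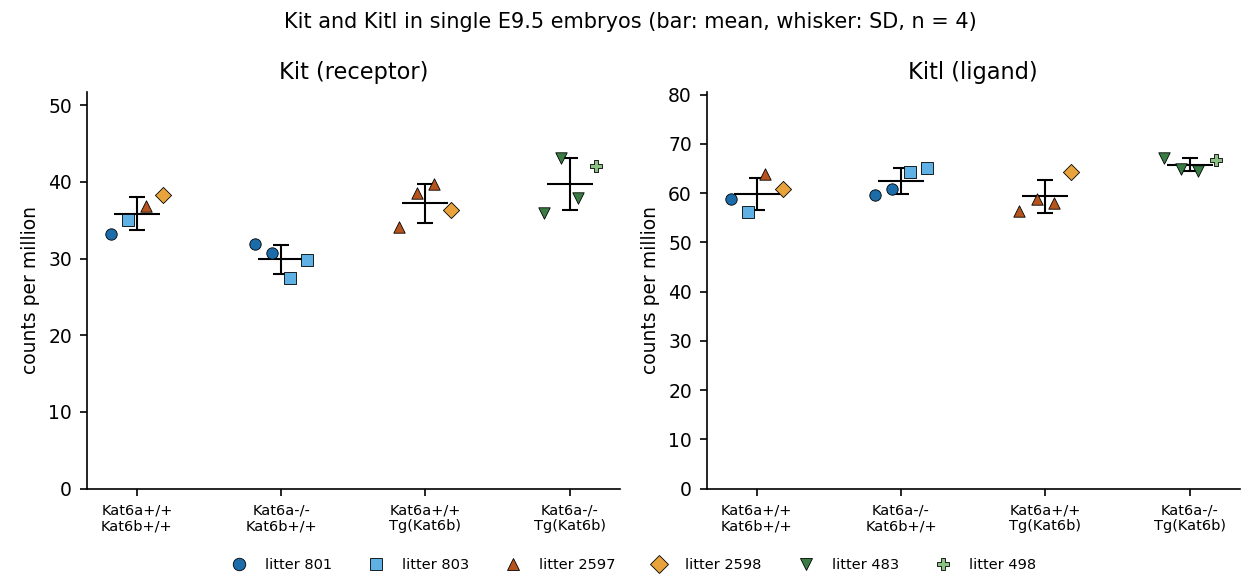
CPM of *Kit* and *Kitl* in each of the 16 embryos by genotype, from a zero baseline, with the mean (bar), the SD (whisker, n = 4) and symbols for litters. The 4 *Kat6a-/-Kat6b+/+* embryos lie below all others for *Kit* (27.4 to 31.9 CPM), and for *Kitl* the *Kat6a-/-Tg(Kat6b)* embryos lie between 64.5 and 67.1 CPM.

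*Runx1*, needed for blood stem cells to emerge from endothelium, was measured at 1.38 to 3.93 CPM and gave the widest intervals. The *Kat6a+/+Kat6b+/+* embryos had 3.31, 1.38, 1.96 and 2.81 CPM, and the *Kat6a-/-Kat6b+/+* embryos 3.93, 2.74, 3.49 and 2.79 CPM. These overlapped (2.37 ± 0.860 against 3.24 ± 0.574 CPM, log2 fold change 0.44, SE 0.20, 95% interval 0.02 to 0.86, edgeR FDR 0.307). The log2 difference from the littermate was 0.01 in litter 801 and 1.18 in litter 803, and with 1 embryo left out the fold change ranged from 0.22 without *Kat6a+/+Kat6b+/+* replicate 2 to 0.70 without replicate 1, uncalled throughout. The *Kat6a+/+Tg(Kat6b)* embryos had 2.02, 2.22, 2.39 and 2.27 CPM and the *Kat6a-/-Tg(Kat6b)* embryos 2.67, 2.00, 2.59 and 2.33 CPM. Both transgenic groups lay entirely below the *Kat6a-/-Kat6b+/+* group, and neither difference passed the threshold (log2 fold change −0.56, FDR 0.0712, and −0.31, FDR 0.373). Without *Kat6a+/+Kat6b+/+* replicate 1 the first of these reached FDR 0.0348, and without *Kat6a-/-Kat6b+/+* replicate 1 the second was −0.15.

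RUNX1 is also known in macrophages, and markers of that cell type were followed beside it. Summed over 12 markers they ranged from 10.7 to 22.9 CPM in the *Kat6a-/-Kat6b+/+* embryos, against 3.53 to 11.3 CPM in the *Kat6a+/+Kat6b+/+*, 4.21 to 6.99 CPM in the *Kat6a+/+Tg(Kat6b)* and 5.87 to 11.4 CPM in the *Kat6a-/-Tg(Kat6b)* group. In *Kat6a-/-Kat6b+/+* against *Kat6a+/+Kat6b+/+* embryos 6 of the 9 tested markers were higher and none was lower, beside 1.88% of all tested genes. Among them were *Mrc1* (log2 fold change 1.38, FDR 0.00123) and *Csf1r* (1.24, FDR 0.0104). *C1qa* and *Fcgr1* are also in that count. They had at most 6 and 5 counts in a *Kat6a+/+Kat6b+/+* embryo, against up to 29 and 24 in a *Kat6a-/-Kat6b+/+* embryo. *C1qb*, also in that count, had 2 to 19 counts in the *Kat6a+/+Kat6b+/+* embryos and 14 to 73 in the *Kat6a-/-Kat6b+/+* embryos. *C1qa*, *Fcgr1* and *C1qb* passed the filter on low counts largely through the *Kat6a-/-Kat6b+/+* embryos, so their calls add little. Up to 3 of the 12 markers (*Adgre1*, *Aif1* and *Tyrobp*) had 0 counts in a *Kat6a+/+Kat6b+/+* embryo, and none in a *Kat6a-/-Kat6b+/+* embryo. The part of these cells in the *Runx1* values was not tested. As in every value from whole embryos, fewer cells of a type and less RNA in each cell cannot be told apart.

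*Gata2*, a zinc finger factor of early blood progenitors, did not pass any test. *Kat6a+/+Kat6b+/+* embryos had 10.4, 9.72, 12.5 and 10.5 CPM and *Kat6a-/-Kat6b+/+* embryos 9.13, 9.80, 9.04 and 10.2 CPM. The ranges overlapped, with 3 of 4 *Kat6a-/-Kat6b+/+* embryos below their littermate (log2 fold change −0.16, SE 0.09, 95% interval −0.34 to 0.02, edgeR FDR 0.389). *Kat6a+/+Tg(Kat6b)* embryos had 10.1 to 11.4 CPM and *Kat6a-/-Tg(Kat6b)* embryos 8.31 to 10.7 CPM.

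*Tal1*, a basic helix-loop-helix factor of blood and endothelial precursors, varied between embryos of the same genotype. *Kat6a+/+Kat6b+/+* embryos had 21.4, 25.0, 24.0 and 20.5 CPM and *Kat6a-/-Kat6b+/+* embryos 16.2, 24.2, 22.5 and 24.2 CPM. Replicate 1 of the *Kat6a-/-Kat6b+/+* embryos stood below the other 15 embryos, and it also had the lowest sum of 12 primitive erythroid markers, 3153 CPM, where the 16 embryos reached up to 6160 CPM. The log2 fold change of *Tal1* was −0.05 (95% interval −0.30 to 0.21, edgeR FDR 0.895), and it turned to 0.06 without that embryo. *Kat6a+/+Tg(Kat6b)* embryos ranged from 18.9 to 26.5 CPM and *Kat6a-/-Tg(Kat6b)* embryos from 18.4 to 21.8 CPM. Of the 12 erythroid markers edgeR called none in *Kat6a-/-Kat6b+/+* against *Kat6a+/+Kat6b+/+* embryos, and none had an unadjusted p under 0.05 (median log2 fold change −0.00488 beside 0.00325 over all genes).

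*Lmo2* and *Cd34* had narrow intervals around 0. *Lmo2* ranged from 22.2 to 25.4 CPM in *Kat6a+/+Kat6b+/+* and from 22.3 to 25.8 CPM in *Kat6a-/-Kat6b+/+* embryos. With the transgene it ranged from 23.4 to 26.2 CPM beside intact *Kat6a* and from 23.6 to 27.1 CPM without *Kat6a*. *Cd34* ranged from 69.0 to 83.2, 73.3 to 79.8, 72.5 to 81.1 and 76.8 to 83.0 CPM in the same order of genotypes. In *Kat6a-/-Kat6b+/+* against *Kat6a+/+Kat6b+/+* embryos the 95% interval of the log2 fold change was −0.10 to 0.12 for *Lmo2* and −0.11 to 0.10 for *Cd34*, so a difference as large as the −0.26 of *Kit* lay outside both.

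*Myb*, a factor of definitive blood progenitors, had 7.36, 8.12, 7.95 and 7.07 CPM in *Kat6a+/+Kat6b+/+* embryos. *Kat6a-/-Kat6b+/+* embryos had 6.36, 8.0, 8.21 and 7.92 CPM, with replicate 1 apart from the other 3 in the direction seen for *Tal1*. The log2 fold change was 0.01 with a 95% interval of −0.22 to 0.24 (edgeR FDR 0.971), which takes in most of the size of the *Kit* difference. *Kat6a+/+Tg(Kat6b)* embryos had 7.34 to 9.12 CPM and *Kat6a-/-Tg(Kat6b)* embryos 6.30 to 9.19 CPM.

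**Figure D3:**
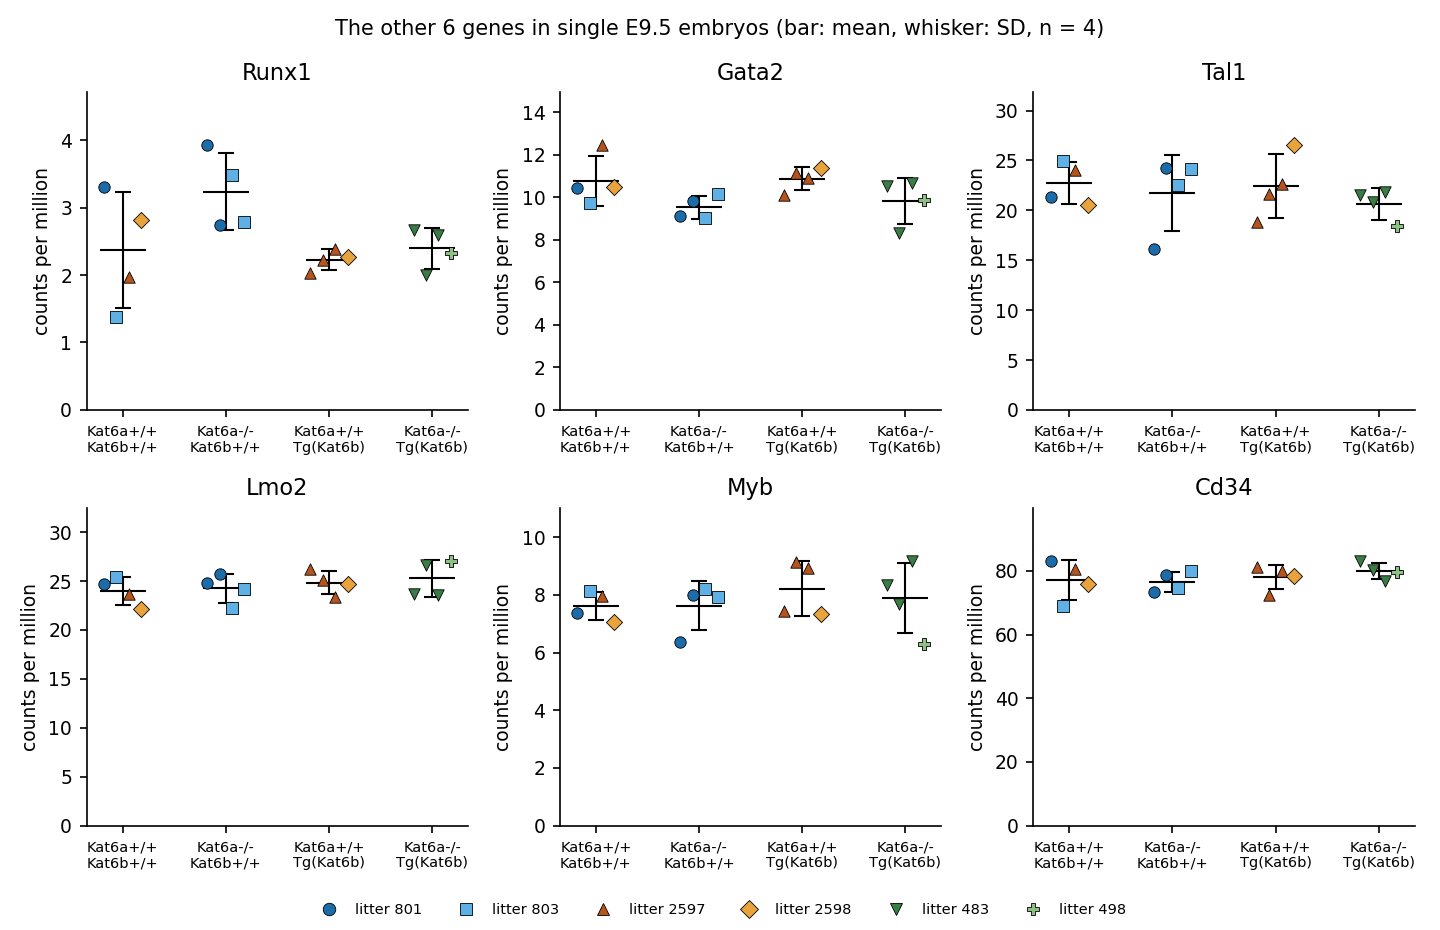
CPM of *Runx1*, *Gata2*, *Tal1*, *Lmo2*, *Myb* and *Cd34* in each of the 16 embryos by genotype, from a zero baseline, with the mean (bar), the SD (whisker, n = 4) and symbols for litters. *Runx1* is 2.74 to 3.93 CPM in *Kat6a-/-Kat6b+/+* embryos and 2.00 to 2.67 CPM in both transgenic groups, and the other 5 genes overlap between all genotypes.

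**Figure D4:**
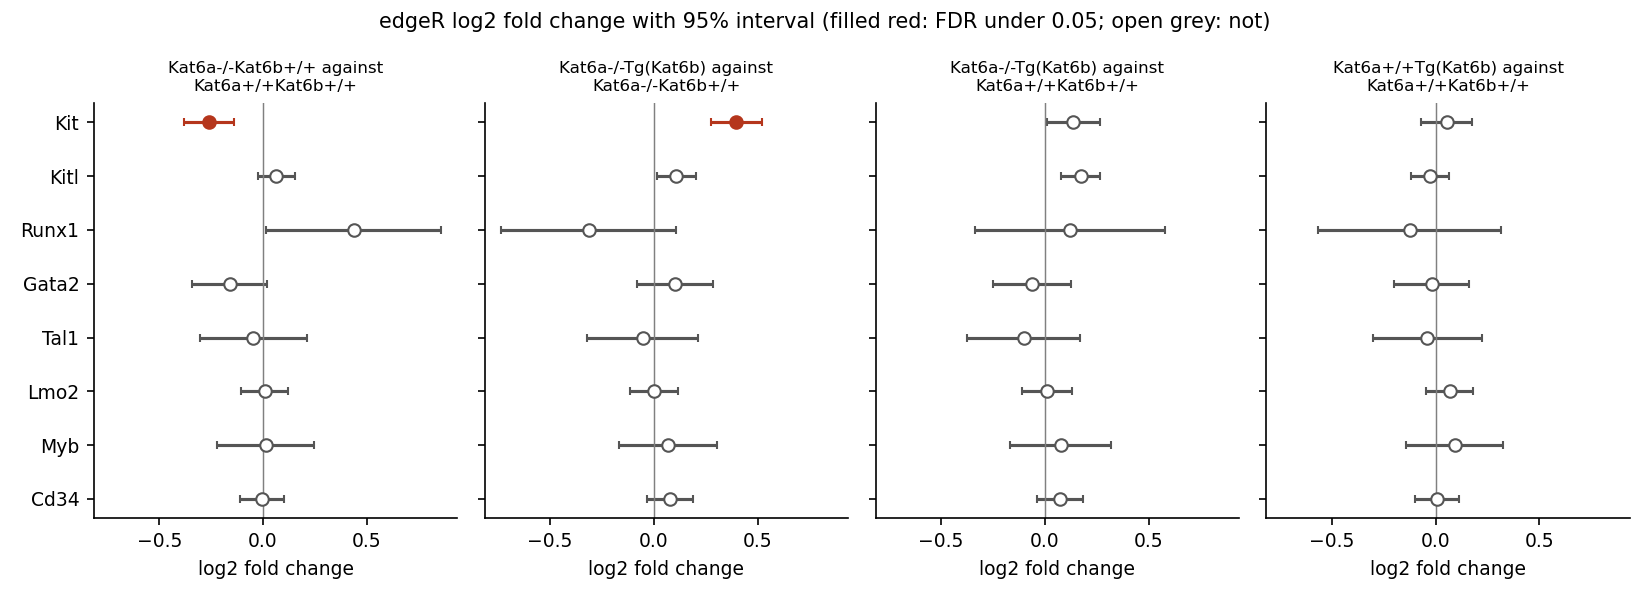
Log2 fold change (x axis) of the 8 genes in 4 comparisons, with 95% intervals from edgeR and filled red points at an FDR under 0.05. *Kit* is at −0.26 in the first panel and 0.40 in the second, and no other point is filled.

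Across the 8 genes the median log2 fold change was 0.00191 in *Kat6a-/-Kat6b+/+* against *Kat6a+/+Kat6b+/+* embryos, with 4 values above and 4 below 0, beside a median of 0.00325 over all tested genes. It was 0.07 in *Kat6a-/-Tg(Kat6b)* against *Kat6a-/-Kat6b+/+* embryos, beside −0.00490 over all tested genes, with 6 values above 0.

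*Kit* was read beside its 2 chromosomal neighbours, both receptor tyrosine kinase genes. *Pdgfra*, the receptor for platelet-derived growth factor in mesenchyme, had 132, 124, 165 and 160 CPM in *Kat6a+/+Kat6b+/+* embryos and 119, 112, 126 and 128 CPM in *Kat6a-/-Kat6b+/+* embryos. The ranges overlapped through 1 *Kat6a+/+Kat6b+/+* embryo, that of litter 803, and the 2 of litters 2597 and 2598 were far above. *Pdgfra* fell by 0.24 on the log2 scale (SE 0.05, edgeR FDR 0.0112), and it was 0.30 higher (SE 0.05, FDR 0.00148) in *Kat6a-/-Tg(Kat6b)* than in *Kat6a-/-Kat6b+/+* embryos. Within litters it was lower in the 2 *Kat6a-/-Kat6b+/+* embryos of litter 801 and higher in the 2 of litter 803 than in their littermate, unlike *Kit*. *Kdr*, the main receptor for vascular endothelial growth factor, did not differ in these comparisons (log2 fold changes 0.03, FDR 0.811, and −0.01, FDR 0.888), and it was lower in *Kat6a+/+Tg(Kat6b)* than in *Kat6a-/-Kat6b+/+* embryos (−0.18, FDR 0.0104). Its values in *Kat6a+/+Tg(Kat6b)* embryos (96.4 to 104.9 CPM) also lay below those in *Kat6a+/+Kat6b+/+* embryos (105.7 to 119.2 CPM), but edgeR did not call that difference (−0.15, FDR 0.175).

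**Figure D5:**
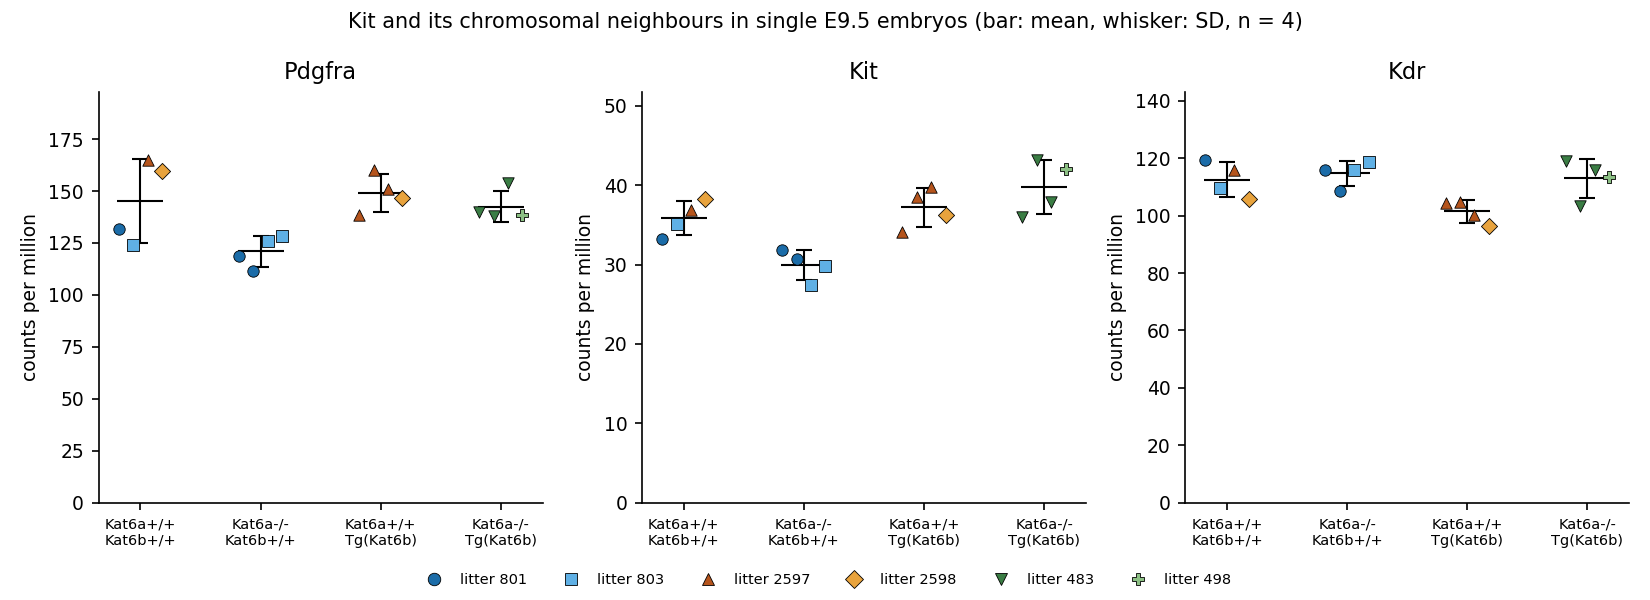
CPM of *Pdgfra*, *Kit* and *Kdr*, neighbours on chromosome 5, in each of the 16 embryos by genotype, from a zero baseline, with the mean (bar), the SD (whisker, n = 4) and symbols for litters. *Kit* separates *Kat6a-/-Kat6b+/+* from *Kat6a+/+Kat6b+/+* embryos, *Pdgfra* overlaps through the *Kat6a+/+Kat6b+/+* embryo of litter 803, and *Kdr* overlaps.

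Other receptors and ligands of the KIT family gave 8 tested genes of 10. In *Kat6a-/-Kat6b+/+* against *Kat6a+/+Kat6b+/+* embryos 1 was lower (*Pdgfra*) and 2 were higher, *Csf1r*, the macrophage receptor also counted among the macrophage markers, and *Pdgfc*, a ligand of PDGFRA (log2 fold change 0.26, FDR 0.0178), 3 of 8 beside 1.88% of all tested genes. Of 30 genes of KIT signalling only *Ptpn6*, a phosphatase that limits KIT signals in blood cells, differed there, and it was higher (log2 fold change 0.73, SE 0.11, FDR 0.00123), 1 of 30 beside the same 1.88%. In *Kat6a-/-Tg(Kat6b)* against *Kat6a-/-Kat6b+/+* embryos *Ptpn6* was lower (−0.45, FDR 0.0195), and among those that were higher was *Pik3ca*, a catalytic subunit of PI3 kinase (0.18, FDR 0.0281). The medians of that list, −0.000777 and 0.02, lay near those of all genes.

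Of 31 tested genes of a wider blood stem cell network, 1 was lower and 2 were higher in *Kat6a-/-Kat6b+/+* against *Kat6a+/+Kat6b+/+* embryos. *Mycn*, a MYC family factor broadly active in embryonic growth, fell by 0.26 on the log2 scale (SE 0.04, FDR 0.00192), *Bmi1*, a Polycomb protein, rose by 0.23 (SE 0.04, FDR 0.00381), and the other was *Ptprc*, also a macrophage marker, at low counts. In *Kat6a-/-Tg(Kat6b)* against *Kat6a-/-Kat6b+/+* embryos 3 were higher, *Cbfa2t3*, a partner of TAL1 (0.42, FDR 0.00767), *Mycn* (0.17, FDR 0.0248) and *Etv6* (0.16, FDR 0.0308). The medians were −0.02 in both comparisons, beside 0.00325 and −0.00490 over all genes, and these counts of 3 of 31 stand beside 1.88% and 7.14% of all tested genes.

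Cell types known to express *Kit* were followed through their markers. Between *Kat6a-/-Kat6b+/+* and *Kat6a+/+Kat6b+/+* embryos edgeR called none of 5 tested melanoblast markers, with 1 lower at an unadjusted p under 0.05. Of 12 endothelial markers 1 was higher (*Cldn5*, log2 fold change 0.29, FDR 0.0487), and of 6 tested germ cell markers 1 was higher (*Ifitm3*, 0.50, FDR 0.0244). These counts stand beside 1.88% of all tested genes. The summed melanoblast markers, mostly *Ednrb* and *Sox10*, which other neural crest cells share, ranged from 75.8 to 85.5 CPM in *Kat6a+/+Kat6b+/+* and from 76.5 to 82.1 CPM in *Kat6a-/-Kat6b+/+* embryos, and 1 to 3 of the 8 markers (*Tyr*, *Tyrp1* and *Mlana*) had 0 counts in each. The germ cell sums were 30.3 to 35.2 and 33.2 to 37.9 CPM, and the endothelial sums 479 to 525 and 523 to 549 CPM. The ranges overlapped for all 3 cell types. In *Kat6a-/-Tg(Kat6b)* against *Kat6a-/-Kat6b+/+* embryos, where *Kit* was higher, 1 of 5 melanoblast markers was lower (*Dct*, −1.08, FDR 0.0422, at low counts) and 1 of 6 germ cell markers was lower (*Ifitm3*, −0.46, FDR 0.0190). Of the 12 endothelial markers 1 was lower there (*Cldn5*, −0.31, FDR 0.0192) and 1 was higher (*Tek*, 0.30, FDR 0.0323). The share called over all tested genes was 7.14% in that comparison, so single calls in such short lists say little about these cell types. The sums in *Kat6a-/-Tg(Kat6b)* embryos were 70.4 to 78.0 CPM for melanoblast, 29.0 to 33.7 CPM for germ cell and 507 to 552 CPM for endothelial markers, and each range overlapped that of *Kat6a-/-Kat6b+/+* embryos. Neural tube markers, led by *Sox2*, summed to 340 to 353 CPM in *Kat6a-/-Kat6b+/+*, 362 to 378 CPM in the *Kat6a+/+Kat6b+/+* and 335 to 357 CPM in the *Kat6a-/-Tg(Kat6b)* group, where *Kit* was at its highest. In the *Kat6a+/+Tg(Kat6b)* group they summed to 383 to 427 CPM, above all other groups. EdgeR called none of the 6 in the first comparison (2 lower at an unadjusted p under 0.05) and none in *Kat6a-/-Tg(Kat6b)* against *Kat6a-/-Kat6b+/+* embryos. In *Kat6a+/+Tg(Kat6b)* against *Kat6a-/-Kat6b+/+* embryos, where *Kit* was also higher, 4 of the 6 were higher, beside 5.46% of all tested genes.

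The summed yolk sac endoderm markers and *Hand1* were on average lowest in the genotype in which *Kit* was lowest. The 8 yolk sac endoderm markers, mostly *Afp*, which the gut and liver bud also express, summed to 10.0 to 18.0 CPM in *Kat6a-/-Kat6b+/+* embryos, against 15.4 to 56.1 CPM in the *Kat6a+/+Kat6b+/+* and 41.1 to 53.4 CPM in the *Kat6a-/-Tg(Kat6b)* group. In *Kat6a+/+Tg(Kat6b)* embryos they ranged widely, and the embryo with the lowest sum, replicate 3 at 5.36 CPM, had the highest *Kit* of its genotype (39.8 CPM). Of the 6 tested markers edgeR called none in *Kat6a-/-Kat6b+/+* against *Kat6a+/+Kat6b+/+* or in *Kat6a-/-Tg(Kat6b)* against *Kat6a-/-Kat6b+/+* embryos (1 lower and 2 higher at an unadjusted p under 0.05). Up to 1 of the 8 (*Apoa4*) had 0 counts in an embryo. Trophoblast markers, nearly all *Hand1*, which heart and lateral mesoderm also express, summed to 9.81 to 15.5 CPM in *Kat6a-/-Kat6b+/+*, 19.6 to 24.7 CPM in the *Kat6a+/+Kat6b+/+* and 24.4 to 33.3 CPM in the *Kat6a-/-Tg(Kat6b)* group. In *Kat6a+/+Tg(Kat6b)* embryos they summed to 12.1 to 24.7 CPM, which overlapped the *Kat6a-/-Kat6b+/+* range. Replicate 3, with the highest *Kit* of that genotype, again had its lowest sum (12.1 CPM). Of the 8 trophoblast markers 3 to 6 had 0 counts in each embryo, and *Tpbpa* and *Psg18* had 0 in all 16. *Hand1*, 1 of the 2 tested markers of that list, was higher in *Kat6a-/-Tg(Kat6b)* than in *Kat6a-/-Kat6b+/+* embryos (log2 fold change 1.16, SE 0.23, FDR 0.0151), beside 7.14% of all tested genes. Of the 2 tested markers none was called in the first comparison (1 lower at an unadjusted p under 0.05). Of 6 paraxial mesoderm markers 1, *Uncx*, fell by 0.34 in the first comparison (FDR 0.0136), beside 1.88% of all tested genes. None of 6 platelet markers (1 higher at an unadjusted p under 0.05) and none of 6 heart muscle markers (1 lower) was called there. The part of any of these cells or tissues in the *Kit* values was not tested.

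Over all 16 embryos the 5 genes most like *Kit*, among 11801 genes whose mean log2 CPM reached 2, were *Wnt5a* (Pearson r 0.94), *Topbp1* (0.93), *Mir17hg* (0.93), *Pkn2* (0.92) and *Socs2* (0.90). The values describe 16 embryos that share genotypes and litters, and the genes were picked as the highest of all those compared. *Wnt5a*, a secreted signal of growing limb buds and the tail end, averaged 66.2 ± 1.87 CPM in the *Kat6a-/-Kat6b+/+* group, against 82.5 ± 6.06 CPM in *Kat6a+/+Kat6b+/+*, 90.3 ± 6.03 CPM in the *Kat6a+/+Tg(Kat6b)* and 89.7 ± 9.28 CPM in the *Kat6a-/-Tg(Kat6b)* group. For the other genes the single most like was *As3mt* for *Kitl* (0.83), *Rabac1* for *Runx1* (0.84), *Irf2* for *Gata2* (0.86), *Ikzf1* for *Tal1* (0.84), *Eif1a* for *Lmo2* (0.93), *Slf1* for *Myb* (0.78) and *Cyp39a1* for *Cd34* (0.75).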

How the data were processed

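RNA from 16 single E9.5 embryos was sequenced in paired ends with a kit that does not mark strand. Per the labels and the study's methods the authors aligned reads to mm39 (GRCm39) with Rsubread and counted them with featureCounts, and they deposited raw counts per gene with a gene length. The annotation release, the strand setting and the handling of shared reads are not given in the sources used here.

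Counts were filtered with filterByExpr (minimum count 10, total 15), scaled by TMM and fitted over all 16 embryos with edgeR 4.0.16 (robust quasi-likelihood) in R 4.3.3, with genotype and 2 surrogate variables from sva 3.50.0 as terms. FDR is Benjamini-Hochberg over 15679 genes, with a threshold of 0.05. CPM and RPKM use TMM library sizes. Non-overlap of 4 against 4 embryos corresponds to an exact two-sided permutation p of 0.0286, the smallest possible. DESeq2 1.42.0 and limma 3.58.1 served as alternatives. The models were tested on simulated counts of *Kat6a-/-Kat6b+/+* against *Kat6a+/+Kat6b+/+* embryos. There edgeR called 10 of 63 genes changed 1.2-fold (15.9%), 65.2% of those changed 1.5-fold and 83.8% of those changed 2-fold. Most changes of 1.2-fold were thus missed. Correlations over embryos used 100000 permutations. Promoter windows are RefSeq's (GRCm38.p6), and gene spans are from GENCODE. Fold changes between 12 embryos of shared litters used litter as a block.

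The 8 genes, the lists and the tests were chosen with earlier results of these data known. Named were all 8 genes, list genes past FDR 0.05, the genes most like each of the 8, and the neighbours of *Kit*. The list genes were at most 4 per list and comparison, whose mean log2 CPM reached 0. Exceptions were *Ptprc*, *Dct*, *C1qa*, *C1qb* and *Fcgr1*, named after their values were seen. A result of the KIT signalling list is not reported here. Also tested were markers of platelets, yolk sac endoderm, trophoblast, heart and paraxial mesoderm. Embryos are separate animals, and no pair of libraries of the same genotype agreed within sampling noise.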

Additional observations from a re-analysis of the deposited data

Results flagged for a closer look

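One value stood apart within its genotype. *Myb* in *Kat6a-/-Kat6b+/+* replicate 1 was 6.36 CPM, and its gap to the next embryo was 0.841 of the range of the 4, above Dixon's 95% critical value for 4 samples. In all 32 groups of 4 embryos were looked at, 8 genes in 4 genotypes, and chance alone puts about 1 group in 20 past the limit. The same embryo had the lowest *Tal1* (16.2 CPM) and the lowest sum of primitive erythroid markers (3153 CPM) of all 16.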

How the results depend on the processing

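*Kit* in *Kat6a-/-Kat6b+/+* against *Kat6a+/+Kat6b+/+* embryos (log2 fold change −0.26) kept its direction in every fit and lost its call at a threshold of 0.01 (−0.26, 0 genes called), without surrogate variables (−0.26, 0), with sex as covariate (−0.26, 0), with 2 genotypes only (−0.26, 0) and with litter as a block, without surrogate variables (−0.19, 0) or with them (−0.24, 0). Leaving out 1 embryo gave −0.29 to −0.24 and 0 to 1 genes called.

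*Kit* in *Kat6a-/-Tg(Kat6b)* against *Kat6a-/-Kat6b+/+* embryos was called in every fit at FDR 0.05 and 0.01 (0.39 to 0.44 and 1 gene called with 1 embryo left out). Against *Kat6a+/+Kat6b+/+* embryos it was never called (0.12 to 0.18 with 1 embryo left out), and the count of called genes went from 0 to 1 with DESeq2 and without *Kat6a+/+Tg(Kat6b)* replicate 1, *Kitl* in both. In *Kat6a+/+Tg(Kat6b)* against *Kat6a+/+Kat6b+/+* embryos *Kit* turned from 0.05 to −0.015 and −0.056 with litter as a block, without and with surrogate variables, and spanned −0.016 to 0.091 with 1 embryo left out. In *Kat6a+/+Tg(Kat6b)* against *Kat6a-/-Kat6b+/+* embryos the count went from 1 to 0 under both litter blocks and was 1 to 2 with 1 embryo left out, the second being *Runx1*. The interaction count went from 0 to 1 with DESeq2 and was 0 to 1 with 1 embryo left out.

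*Kitl* in *Kat6a-/-Tg(Kat6b)* against *Kat6a+/+Tg(Kat6b)* embryos was not called at 0.01, without surrogate variables, with 1 surrogate variable, with sex as covariate, with 2 genotypes only or with the replicate block (0 genes each, log2 fold change 0.15 to 0.20 in these fits), and the count was 0 to 1 with 1 embryo left out.

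Small uncalled values changed sign. In *Kat6a+/+Tg(Kat6b)* against *Kat6a+/+Kat6b+/+* embryos *Gata2* became 0.0082 without surrogate variables, 0.0077 with 1, 0.0080 with sex as covariate, 0.00097 with the replicate block and 0.0081 with 2 genotypes only, and with litter as a block *Tal1* became 0.024 and 0.065, *Runx1* 0.096 and *Cd34* −0.011. In *Kat6a-/-Kat6b+/+* against *Kat6a+/+Kat6b+/+* embryos *Lmo2* became −0.0029 with the replicate block and −0.045 with litter as a block, *Cd34* 0.0012 and 0.014, and *Myb* −0.014 and −0.081 with litter as a block. *Tal1* (0.011) and *Lmo2* (−0.0016) changed with the replicate block and *Lmo2* (−0.0041) with limma-voom in comparisons of *Kat6a-/-Tg(Kat6b)* embryos. With 1 embryo left out the values spanned, in *Kat6a-/-Kat6b+/+* against *Kat6a+/+Kat6b+/+* embryos, −0.12 to 0.066 (*Tal1*), −0.019 to 0.030 (*Lmo2*), −0.047 to 0.081 (*Myb*) and −0.073 to 0.033 (*Cd34*). In *Kat6a+/+Tg(Kat6b)* against *Kat6a+/+Kat6b+/+* embryos they spanned −0.054 to 0.0015 (*Kitl*), −0.28 to 0.14 (*Runx1*), −0.056 to 0.065 (*Gata2*), −0.13 to 0.059 (*Tal1*) and −0.043 to 0.050 (*Cd34*). In *Kat6a-/-Tg(Kat6b)* against *Kat6a+/+Kat6b+/+* embryos they spanned −0.19 to 0.44 (*Runx1*), −0.14 to 0.039 (*Tal1*), −0.00079 to 0.035 (*Lmo2*) and −0.019 to 0.12 (*Cd34*), and against *Kat6a-/-Kat6b+/+* embryos −0.19 to 0.032 (*Tal1*) and −0.016 to 0.033 (*Lmo2*).

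The labels tie no litter, batch or day to a replicate number, although some same-numbered embryos share a litter. Of 24 pairs of same-numbered embryos 10 correlated above 0.1. Pairs with unlike numbers were not set beside them, so these values do not settle whether the numbers pair the embryos. With the replicate block edgeR called 231 genes in the first comparison in place of 295, and 18 or 21 with litter as a block over 12 embryos, which has fewer embryos. The wild-type levels moved by less than 1 SD under every scaling. The cause of each lost call was not tested.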

Other observations

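Within *Kat6a+/+Kat6b+/+* embryos *Kit* was higher in litters 2597 and 2598 (mean 37.6 CPM) than in litters 801 and 803 (34.1 CPM) without overlap, and so were *Kitl* (62.3 against 57.4 CPM) and *Gata2* (11.5 against 10.1 CPM), while *Lmo2* was lower (22.9 against 25.1 CPM). The first 2 of these embryos were female and the other 2 male, so litter and sex cannot be told apart there. Mean *Kit* was higher in female than in male embryos in each genotype, by the most in *Kat6a-/-Tg(Kat6b)* (42.6 against 36.9 CPM) and by the least in *Kat6a+/+Tg(Kat6b)* embryos (37.4 against 37.0 CPM).

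Among the 28 pairs of the 8 genes, no correlation of log2 CPM over the 16 embryos passed a Benjamini-Hochberg adjusted permutation p of 0.05, and 14 of the 28 were positive. *Tal1* and *Myb* had Pearson r 0.55 and Spearman rho 0.45 (permutation p 0.0257 and 0.0830, adjusted p 0.630 for r), and r was 0.55 without the 2 embryos farthest from the median of *Tal1* and 0.60 after genotype means were removed. *Kit* and *Runx1* had r −0.51 and rho −0.53 (permutation p 0.0450 and 0.0378, adjusted p 0.630 for r), which went to −0.37 without the 2 embryos farthest from the median of *Kit* and to −0.13 after genotype means were removed. *Kit* and its ligand had r 0.10 and rho 0.13 (permutation p 0.709 and 0.640, adjusted p 0.859 for r), with r 0.43 without 2 embryos.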
